A study of Mus musculus with 6 samples.

Results

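The genes described here are 31 nuclear receptors and coregulators, taken from a table of 19241 genes by their symbols. They comprise 4 lipid receptors, 6 retinoid receptors, 10 orphan receptors, 3 receptors for steroids and vitamin D, 4 coactivators and 4 corepressors. RNA-seq was run on bulk RNA of the entire interscapular brown adipose depot of newborn mice, a heat-producing fat pad between the shoulder blades. The 3 control libraries, called WT, came from mice of the genotype Fstl1-floxed, and the 3 libraries called KO came from mice of the genotype Myf5-Fstl1 KO, in which Fstl1, the gene of the secreted protein follistatin-like 1, was deleted in the Myf5 lineage. Both groups were newborn, and the comparison asks how the depot differs when that lineage lacks Fstl1. Myf5 marks precursors of skeletal muscle and of much of the interscapular brown fat, so cells of other origin in the depot keep the gene. The labels do not name the Cre line or say whether a library came from 1 animal or from a pool, so p-values measure the spread between these libraries.

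Nuclear receptors are transcription factors that bind DNA through a zinc finger domain and, in many cases, change activity when a small lipophilic ligand binds. The lipid and retinoid receptors work as pairs with a retinoid X receptor, and they exchange corepressors built around NCoR1 and HDAC3 for coactivators of the p160 family and the Mediator complex when ligand arrives. In brown fat this system is known for driving fat storage, fatty acid burning and Ucp1. The orphan receptors have no established natural ligand or respond mainly through how much of them is made, as the NR4A group does after cAMP and other signals.

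All 31 genes were in the table, and all 31 passed the filter, which asked for 0.5 FPKM or more on average over the 6 libraries. FPKM are fragment counts scaled to transcript length and library size, so levels can be set beside each other between genes. Differences were tested with limma on log2(FPKM + 1) over all 13331 genes that passed the filter, and a gene counts as changed at a Benjamini-Hochberg adjusted p under 0.05. Only the orphan receptor gene Nr4a3 changed, and it rose. The other 30 genes did not pass, 15 of them with a KO value above and 15 below WT. The 1 gene called is 3.23% of the 31, where 2.21% of all tested genes were called (1.21% higher and 1.01% lower), so the share called was near that of genes in general. The KO and WT values did not overlap for 7 of the 31 (22.6%) against 24.9% of all tested genes, and 7 of the 31 had an unadjusted p under 0.05 (22.6%) against 19.2%. The median log2 fold change was 0.015 over the 31 (−0.05 to 0.08 when 1 library was left out) and 0.011 over all tested genes. For 25 of the 31 the 95% interval of the log2 difference lay within 1 of 0; the exceptions were Ppara, Rxrg, Nr2f6, Nr4a2, Nr4a3 and Vdr.

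**Figure D1:**
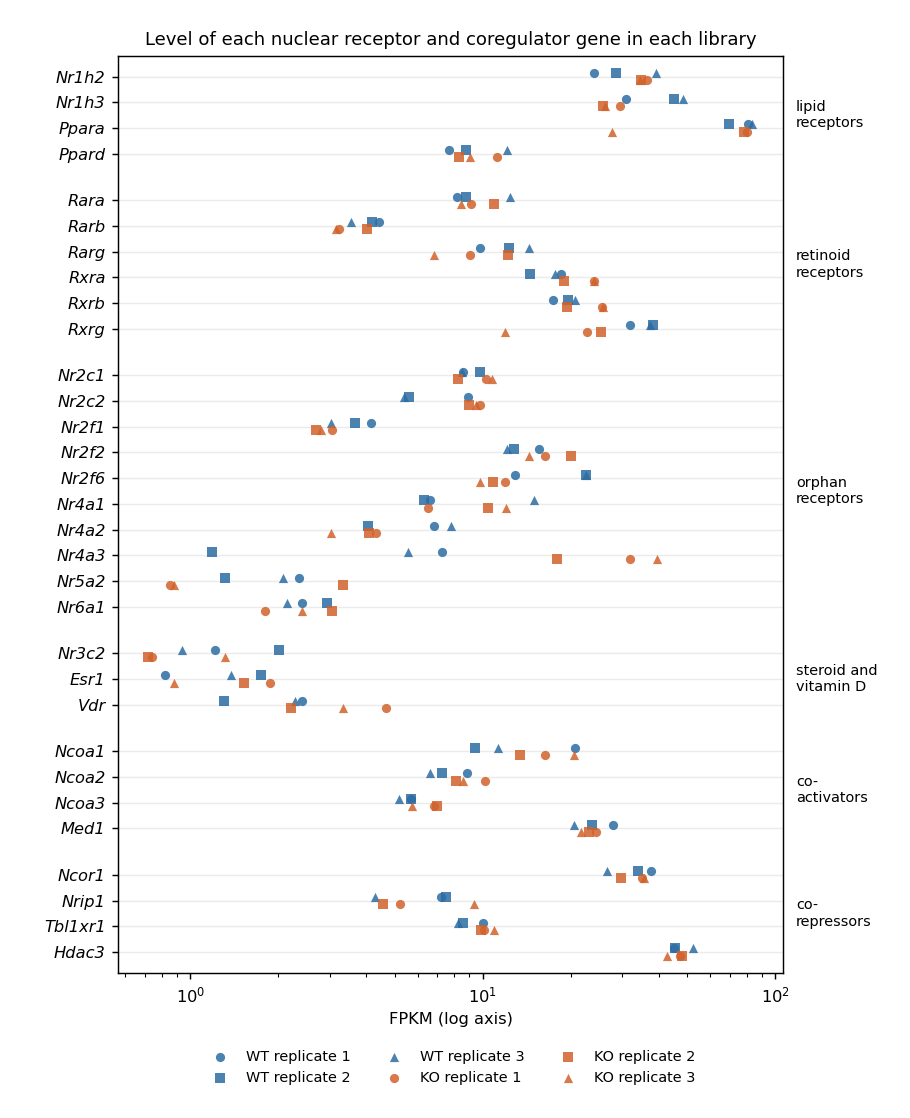
FPKM (log axis) of each of the 31 genes in each of the 6 libraries, grouped by role; blue marks are WT and orange marks KO, with 1 symbol shape for each replicate number. Nr4a3 lies at 1.19 to 7.24 FPKM in WT and 17.9 to 39.3 FPKM in KO, while most other genes show mixed blue and orange marks.

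Facts of the whole data set bear on these values. Fstl1, the targeted gene, measured 54.4 to 130.04 FPKM in WT and 7.93 to 13.1 FPKM in KO (log2 fold change −2.79, limma adjusted p 0.00979). An exact permutation test gave p 0.1, the smallest that 3 libraries against 3 can give. Xist measured 44.8 to 85.5 FPKM in WT and at most 0.92 FPKM in KO, and the Y-linked gene Ddx3y was at most 0.23 FPKM in WT and 59.5 to 60.8 FPKM in KO, so sex and genotype cannot be told apart in any difference given here. None of the 31 genes lies on the X or Y chromosome. The depot's own markers were abundant in every library: 12 brown adipocyte genes summed to 21709 to 27115 FPKM in WT and 20601 to 22723 FPKM in KO, a sum carried by Fabp4 at 15810 ± 1672 and 15037 ± 944 FPKM (SD, n = 3). Of these 12 markers 8 had lower KO values. An unadjusted p under 0.05 was found for 5, of which 4 were lower and 1 higher in KO. The higher one was Ppargc1a, at 19.1 ± 3.98 FPKM in WT and 28.1 ± 7.48 FPKM in KO (SD, n = 3, limma adjusted p 0.251). Past the threshold 1 marker fell, Plin1, the gene of the lipid droplet protein perilipin 1. It went from 245.7 ± 68.1 to 93.2 ± 15.1 FPKM (SD, n = 3, limma adjusted p 0.0267). Ucp1, the heat-producing uncoupler, was at 5582 ± 1055 FPKM in WT and 2729 ± 959.9 FPKM in KO (SD, n = 3), and Ucp1, Ebf2 and Prdm16 had no overlap between the groups without passing (limma adjusted p 0.0804, 0.0917 and 0.0519). The sum of 14 skeletal muscle markers was 343 FPKM in KO replicate 1 and 1337 to 1949 FPKM in the other 5 libraries (all 14 log2 differences below 0, 0 past the threshold in limma and 2 with an unadjusted p under 0.05), and that of 8 erythroid markers was 11803 FPKM in WT replicate 3 and 2561 to 4182 FPKM in the others. The 12 macrophage markers summed to 141 to 202 FPKM in WT and 191 to 272 FPKM in KO, all 12 with a higher KO value and 0 of them past the threshold (limma; 5 with an unadjusted p under 0.05), and the 10 fibroblast markers to 1366 to 1852 FPKM in WT and 1492 to 2556 FPKM in KO, 9 of 10 with a higher KO value and 1 past the threshold. The 8 epidermis and 8 lymphocyte markers stayed at or below 5.32 FPKM in sum. The part of other cell types in the differences was not tested, and in bulk tissue fewer cells of a type cannot be told from less RNA per cell.

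Of the 4 lipid receptors 3 ranked among the 5 most abundant of the 31 genes, and 0 of 4 passed the test (limma; 1 with an unadjusted p under 0.05). Ppara, the receptor that switches on fatty acid oxidation genes, had the highest mean of all 31 at 70.0 FPKM. It measured 80.6, 69.4 and 83.6 FPKM in WT replicates 1, 2 and 3, against 79.97, 78.6 and 27.8 FPKM in KO replicates 1, 2 and 3. KO replicate 3 stood alone far below the rest, and the other 5 libraries lay close together. The log2 fold change of −0.46 (95% interval −1.27 to 0.34, limma adjusted p 0.516) turned to 0.03 without that library. Ppard, the broadly expressed relative, lay at 9.52 ± 2.29 FPKM in WT and 9.54 ± 1.51 FPKM in KO (SD, n = 3), with a log2 fold change of 0.02 (95% interval −0.42 to 0.45).

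The LXR genes had KO means on opposite sides of WT. Nr1h3 encodes LXR alpha, an oxysterol sensor that controls cholesterol export and lipid synthesis, and it measured 30.9, 45.3 and 48.5 FPKM in WT against 29.4, 25.8 and 26.3 FPKM in KO. All 3 KO values were below all WT values, though WT replicate 1 lay close to KO replicate 1. The log2 fold change was −0.57 (SE 0.18, 95% interval −0.99 to −0.16), which did not pass (limma adjusted p 0.141) and passed without WT replicate 1 (limma adjusted p 0.0388). Nr1h2, the gene of the more broadly expressed LXR beta, measured 24.1, 28.7 and 39.0 FPKM in WT against 36.4, 34.8 and 34.5 FPKM in KO, with overlapping groups (log2 fold change 0.22, limma adjusted p 0.54). The share of Nr1h3 in the summed FPKM of the pair was 56.2%, 61.2% and 55.4% in WT and 44.7%, 42.6% and 43.2% in KO. Nr1h3 was thus the larger of the pair in each WT library and the smaller in each KO library. The shares did not overlap (exact two-sided permutation test p 0.1, adjusted p 0.217 over the 13 isotype shares tested).

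Among the retinoid receptors, which sense retinoic acid (RAR) or act as partners of other receptors (RXR), 0 of 6 passed the threshold (limma; Rxra and Rxrg had an unadjusted p under 0.05). Rxrg, the RXR isotype typical of muscle, brain and brown fat, measured 31.9, 38.2 and 37.3 FPKM in WT against 22.8, 25.3 and 11.9 FPKM in KO. Each KO library was below each WT library, and KO replicate 3 was lowest. The KO mean was 55.9% of the WT mean, a log2 fold change of −0.87 (SE 0.25, 95% interval −1.45 to −0.29, limma adjusted p 0.113). In KO replicate 3, where Rxrg was lowest, the muscle marker sum was 1767 FPKM, within the WT range; the part of muscle or of the brown adipocyte markers in the Rxrg values was not tested. Rxra, the most widely used isotype, measured 18.6, 14.5 and 17.6 FPKM in WT against 24.1, 18.9 and 24.1 FPKM in KO. Every KO value was above every WT value, by a narrow margin for KO replicate 2 (log2 fold change 0.38, 95% interval 0.02 to 0.75, limma adjusted p 0.24). Rxrb lay at 17.4 to 20.7 FPKM in WT and 19.5 to 25.9 FPKM in KO (log2 fold change 0.28, limma adjusted p 0.378).

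The RXR sum overlapped between the groups while its make-up did not. The 3 isotypes summed to 71.9 ± 3.93 FPKM in WT and 66.0 ± 5.69 FPKM in KO (SD, n = 3; exact permutation test p 0.3). Rxrg made up 47.0%, 52.9% and 49.4% of that sum in WT and 31.5%, 39.7% and 19.2% in KO. Rxra made up 20.03% to 27.4% in WT and 29.7% to 38.9% in KO, and Rxrb 25.6% to 27.4% in WT and 30.6% to 41.8% in KO. None of these 3 shares overlapped between the groups (exact two-sided permutation test p 0.1 each, adjusted p 0.217 over 13 shares). Because they are parts of the same sum, these 3 are not separate results. Without any 1 library the difference in the Rxrg share lay between −24.4 and −14.1 percentage points.

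**Figure D2:**
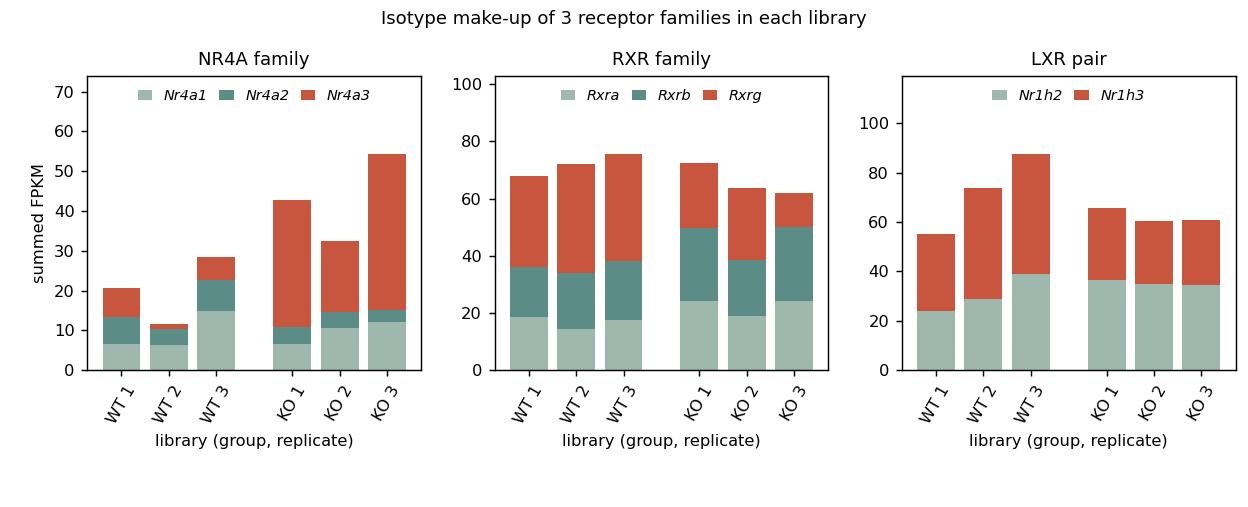
Stacked FPKM of the isotypes of the NR4A family, the RXR family and the LXR pair in each of the 6 libraries (x axis, group and replicate; y axis, summed FPKM from 0). The red Nr4a3 segment is largest in the 3 KO libraries, while the red Rxrg and Nr1h3 segments are smallest there and the RXR sum stays between 61.8 and 75.7 FPKM.

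The RAR genes had overlapping groups, and none passed the test. Rara, the widely expressed isotype, lay at 8.17 to 12.4 FPKM in WT and 8.44 to 10.9 FPKM in KO (log2 fold change −0.03, 95% interval −0.44 to 0.39). Rarg measured 9.83, 12.3 and 14.4 FPKM in WT against 9.07, 12.2 and 6.8 FPKM in KO, with overlapping groups (log2 fold change −0.37, 95% interval −0.86 to 0.13, limma adjusted p 0.402). Rarb, itself a classic retinoic acid target gene, lay at 3.55 to 4.43 FPKM in WT and 3.16 to 4.03 FPKM in KO (log2 fold change −0.18, 95% interval −0.53 to 0.17). The shares of the 3 in their sum overlapped between the groups, with Rarg at 46.7% ± 2.55 in WT and 41.4% ± 4.09 in KO (SD, n = 3).

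Nr4a3 (Entrez gene 18124), an immediate early orphan receptor also called NOR-1, was the gene that rose. It measured 7.24, 1.19 and 5.57 FPKM in WT replicates 1, 2 and 3, against 31.9, 17.9 and 39.3 FPKM in KO replicates 1, 2 and 3. The lowest KO library was above the highest WT library, and WT replicate 2 was lowest of all. The means were 4.67 ± 3.12 FPKM in WT and 29.7 ± 10.9 FPKM in KO (SD, n = 3), a 6.36-fold difference. The log2 fold change was 2.57 (SE 0.47, 95% interval 1.51 to 3.64, limma adjusted p 0.0369). Its direction was the same in 16 of 16 alternative settings, with log2 fold changes of 1.99 to 2.95. The call was lost in 7 of them: without the filter on low values (limma adjusted p 0.107), with robust eBayes (0.105), and without WT replicate 2 (0.0675), WT replicate 3 (0.106), KO replicate 1 (0.0841), KO replicate 2 (0.0651) or KO replicate 3 (0.0993). The macrophage and fibroblast marker sums given above were also higher on average in KO, and their part in the rise was not tested.

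The NR4A relatives, which bind the same DNA element, did not pass the test. Nr4a1, also called Nur77, measured 6.63, 6.28 and 14.9 FPKM in WT against 6.49, 10.5 and 11.98 FPKM in KO (log2 fold change 0.11, 95% interval −0.61 to 0.84, limma adjusted p 0.892). All KO values lay within the WT range, and the highest value was in WT replicate 3. Nr4a2, also called Nurr1, measured 6.84, 4.07 and 7.82 FPKM in WT against 4.31, 4.08 and 3.02 FPKM in KO. WT replicate 2 lay among the KO values, and the log2 fold change of −0.56 (95% interval −1.07 to −0.05) did not pass (limma adjusted p 0.22). The 3 genes summed to 20.2 ± 8.41 FPKM in WT and 43.2 ± 10.9 FPKM in KO (SD, n = 3; exact permutation test p 0.1). Nr4a3 made up 34.96%, 10.3% and 19.7% of the sum in WT and 74.7%, 55.2% and 72.4% in KO. It was the largest of the 3 in every KO library and, in WT, only in replicate 1. The Nr4a2 share was 27.6% to 35.3% in WT and 5.56% to 12.6% in KO. The Nr4a2 and Nr4a3 shares did not overlap between the groups (exact two-sided permutation test p 0.1 each, adjusted p 0.217 over 13 shares). Shares are parts of the same sum, so a larger Nr4a3 share leaves less for the others. The Nr4a2 share is therefore not a separate result, and its FPKM overlapped between the groups.

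The promoters of the 3 NR4A genes are shown because these relatives, known as cAMP-induced genes, took different values here. Each run holds the 250 bases before and the 50 bases after a start of the gene, from RefSeq on GRCm38.p6. It is written 5′ to 3′ on the gene's strand. For Nr4a1 and Nr4a3 the annotated gene begins upstream of the start used, at base 101253902 of chromosome 15 and base 48045078 of chromosome 4. The Nr4a1 window thus lies inside the annotated gene, as does most of the Nr4a3 window. Capitals mark TGACG, the core of the cAMP response element, or its reverse complement.
Nr4a1 (chr15:101266596-101266895, plus strand): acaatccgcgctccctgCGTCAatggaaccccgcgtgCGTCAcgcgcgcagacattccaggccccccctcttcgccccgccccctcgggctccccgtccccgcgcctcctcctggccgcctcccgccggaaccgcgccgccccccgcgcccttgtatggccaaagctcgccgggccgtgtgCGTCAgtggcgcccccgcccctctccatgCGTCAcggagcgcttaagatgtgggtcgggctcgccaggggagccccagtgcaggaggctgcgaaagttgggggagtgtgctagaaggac
Nr4a2 (chr2:57123954-57124253, minus strand): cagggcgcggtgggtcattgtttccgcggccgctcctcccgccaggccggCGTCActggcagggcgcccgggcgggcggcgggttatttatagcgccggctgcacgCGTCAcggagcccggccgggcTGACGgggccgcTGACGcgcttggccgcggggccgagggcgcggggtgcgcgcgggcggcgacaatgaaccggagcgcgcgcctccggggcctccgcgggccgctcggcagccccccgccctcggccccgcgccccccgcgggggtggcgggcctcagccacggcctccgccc
Nr4a3 (chr4:48045055-48045354, plus strand): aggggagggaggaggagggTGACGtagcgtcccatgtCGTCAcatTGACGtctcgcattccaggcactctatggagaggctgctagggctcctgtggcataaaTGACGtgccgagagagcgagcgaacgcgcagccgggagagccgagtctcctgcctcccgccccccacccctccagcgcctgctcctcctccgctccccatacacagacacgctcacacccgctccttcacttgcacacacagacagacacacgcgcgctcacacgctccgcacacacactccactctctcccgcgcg
Each of the 3 windows held 4 such matches. In Nr4a3 they began 231, 213, 205 and 147 bases before the start used. In Nr4a1 they began at 233, 213, 69 and 40 bases, and in Nr4a2 at 200, 144, 123 and 111 bases. At least 1 match on either strand was found in 20.8% of all 32851 promoter windows of this length, and at least 4 in 0.231%, a number of copies chosen after the NR4A windows were read. Among the 42 windows of the 28 members in the promoter table, 13 held at least 1 match and only these 3 held 4 or more. The complete element TGACGTCA, found in 1.79% of all windows, was in none of the 3. A match is a description of the letters and not a site of binding.

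The DNA element that the NR4A receptors are known to bind as single molecules, AAAGGTCA, was found on either strand in 1.51% of all windows and in 2 of the 42 windows of the members, 1 of Rxra and 1 of Rxrg. It contains the AGGTCA core shared by many nuclear receptors, which was in 16.3% of all windows and in 6 of the 42. The stretches around it are shown because Rxra and Rxrg had KO values on opposite sides of WT, with the element in capitals.
Rxra (chr2:27709216-27709275, plus strand): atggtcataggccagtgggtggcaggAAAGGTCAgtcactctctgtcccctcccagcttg
Rxrg (chr1:167618149-167618208, plus strand): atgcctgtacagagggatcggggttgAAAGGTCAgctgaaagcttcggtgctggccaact
The match began 50 bases before 1 of the 2 Rxra starts and 90 bases before 1 of the 2 Rxrg starts in the table. The 60-base stretches thus hold the same 8 letters beside genes whose log2 fold changes were 0.38 and −0.87, neither past the threshold.

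The other orphan receptors did not pass the test. Nr2f6, a COUP-TF relative that acts mostly as a repressor, measured 12.9, 22.5 and 22.5 FPKM in WT against 11.9, 10.8 and 9.78 FPKM in KO. All KO values were below all WT values, with WT replicate 1 closer to KO than to the other WT libraries. The log2 fold change was −0.74 (SE 0.22, 95% interval −1.23 to −0.24, limma adjusted p 0.117), and it passed without WT replicate 1 (−0.99, limma adjusted p 0.0299). Nr2c2, the gene of the testicular receptor TR4, measured 8.88, 5.59 and 5.38 FPKM in WT against 9.78, 9.01 and 9.49 FPKM in KO. The groups did not overlap, but WT replicate 1 lay just under the lowest KO library, and the log2 fold change of 0.48 (95% interval 0.05 to 0.91, limma adjusted p 0.213) passed without WT replicate 1 (0.68, limma adjusted p 0.0498). Nr2c1, its partner, lay at 8.51 to 9.76 FPKM in WT and 8.23 to 10.8 FPKM in KO (log2 fold change 0.11, 95% interval −0.24 to 0.46).

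Nr2f2, the gene of COUP-TFII, a regulator of mesenchymal, venous and adipocyte precursors, lay at 12.1 to 15.5 FPKM in WT and 14.4 to 20.05 FPKM in KO (log2 fold change 0.31, limma adjusted p 0.364). Its relative Nr2f1 lay at 3.04 to 4.14 FPKM in WT and 2.7 to 3.06 FPKM in KO (log2 fold change −0.26, limma adjusted p 0.395), and the groups met at 3.04 and 3.06 FPKM. Nr5a2, known as LRH-1 in liver and pancreas, was low and scattered: 2.36, 1.31 and 2.07 FPKM in WT and 0.85, 3.34 and 0.88 FPKM in KO (log2 fold change −0.22, 95% interval −0.95 to 0.51). KO replicate 2 was highest and the other KO libraries lowest. Nr6a1, the germ cell nuclear factor, lay at 2.14 to 2.94 FPKM in WT and 1.8 to 3.05 FPKM in KO (log2 fold change −0.04, 95% interval −0.45 to 0.37).

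Exons of 10 of the 31 genes overlap exons of another gene in GENCODE vM21, in 9 of them on the opposite strand, and whether the authors' counting used strand is not given in the sources used here. Reads of such a pair may have been counted for either gene. The longest shared stretches were 3533 bases of Nr2c2 with Mrps25, 1429 bases of Rarb with Top2b, 643 bases of Nr2f2 with B130024G19Rik and 525 bases of Nr2f6 with Ocel1. Mrps25 lay at 11.5 ± 1.39 FPKM in WT and 10.4 ± 0.965 FPKM in KO, and Ocel1 at 4.03 ± 1.52 FPKM in WT and 3.22 ± 0.557 FPKM in KO (SD, n = 3). Top2b lay at 32.8 ± 12.3 FPKM in WT and 38.3 ± 1.8 FPKM in KO. B130024G19Rik lay at 0.46 ± 0.115 FPKM in WT and 1.03 ± 0.289 FPKM in KO (SD, n = 3), with no overlap and with its KO mean above WT as for Nr2f2 (limma adjusted p 0.161, unadjusted p 0.0165). Nr4a1, Nr4a2, Nr4a3 and the RXR genes had no such overlap.

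The receptors for steroids and vitamin D were the least abundant class, with means of 1.16 to 2.7 FPKM, and 0 of 3 passed (limma; 0 with an unadjusted p under 0.05). Vdr, the vitamin D receptor, measured 2.42, 1.3 and 2.29 FPKM in WT against 4.67, 2.21 and 3.32 FPKM in KO. KO replicate 2 lay within the WT range and the other KO libraries above it (log2 fold change 0.53, 95% interval −0.01 to 1.08, limma adjusted p 0.269). Nr3c2, the mineralocorticoid receptor, measured 1.22, 2.01 and 0.94 FPKM in WT against 0.74, 0.72 and 1.32 FPKM in KO, with overlapping groups (log2 fold change −0.30, 95% interval −0.77 to 0.17, limma adjusted p 0.463). Esr1, the estrogen receptor alpha, lay at 0.82 to 1.75 FPKM in WT and 0.88 to 1.88 FPKM in KO (log2 fold change 0.07, 95% interval −0.42 to 0.55). At these levels the added 1 in log2(FPKM + 1) shrinks a difference: the Vdr means of 2.0 ± 0.613 and 3.4 ± 1.23 FPKM (SD, n = 3) differ by 1.7-fold.

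The coactivators, which add acetyl groups to histones or join receptors to RNA polymerase, showed 0 of 4 calls (limma; 0 with an unadjusted p under 0.05). The p160 genes all had KO means above WT means. Ncoa3 measured 5.71, 5.67 and 5.17 FPKM in WT against 6.84, 6.97 and 5.73 FPKM in KO; the groups did not overlap, narrowly so between WT replicate 1 and KO replicate 3 (log2 fold change 0.20, 95% interval −0.12 to 0.53, limma adjusted p 0.477). Ncoa2 measured 8.85, 7.24 and 6.59 FPKM in WT against 10.2, 8.1 and 8.58 FPKM in KO (log2 fold change 0.22, limma adjusted p 0.491). Ncoa1 spread widely within both groups, from 9.4 to 20.7 FPKM in WT and from 13.5 to 20.6 FPKM in KO (log2 fold change 0.32, 95% interval −0.30 to 0.94). Med1, the Mediator subunit that receptors contact, was the most abundant of the 4, at 28.0, 23.7 and 20.5 FPKM in WT against 24.5, 23.2 and 21.6 FPKM in KO (log2 fold change −0.05, 95% interval −0.40 to 0.30).

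The corepressors likewise showed 0 of 4 calls (limma; 0 with an unadjusted p under 0.05), and their log2 fold changes ran from −0.05 to 0.19. Hdac3, the histone deacetylase of the NCoR complex and the second most abundant of the 31 genes, measured 45.1, 45.4 and 52.5 FPKM in WT against 47.4, 48.0 and 42.8 FPKM in KO (log2 fold change −0.05, 95% interval −0.35 to 0.26). Ncor1, the scaffold of that complex, lay at 26.6 to 37.5 FPKM in WT and 29.8 to 35.7 FPKM in KO (log2 fold change 0.04, 95% interval −0.33 to 0.42). Tbl1xr1, the subunit that exchanges corepressors for coactivators, measured 10.1, 8.59 and 8.26 FPKM in WT against 10.1, 9.85 and 10.97 FPKM in KO (log2 fold change 0.19, 95% interval −0.14 to 0.51). Nrip1, the gene of RIP140, a ligand-dependent repressor of oxidative genes in fat, measured 7.23, 7.47 and 4.3 FPKM in WT against 5.21, 4.57 and 9.34 FPKM in KO. Its lowest value was in WT replicate 3 and its highest in KO replicate 3, with a log2 fold change of −0.02 (95% interval −0.63 to 0.59).

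**Figure D3:**
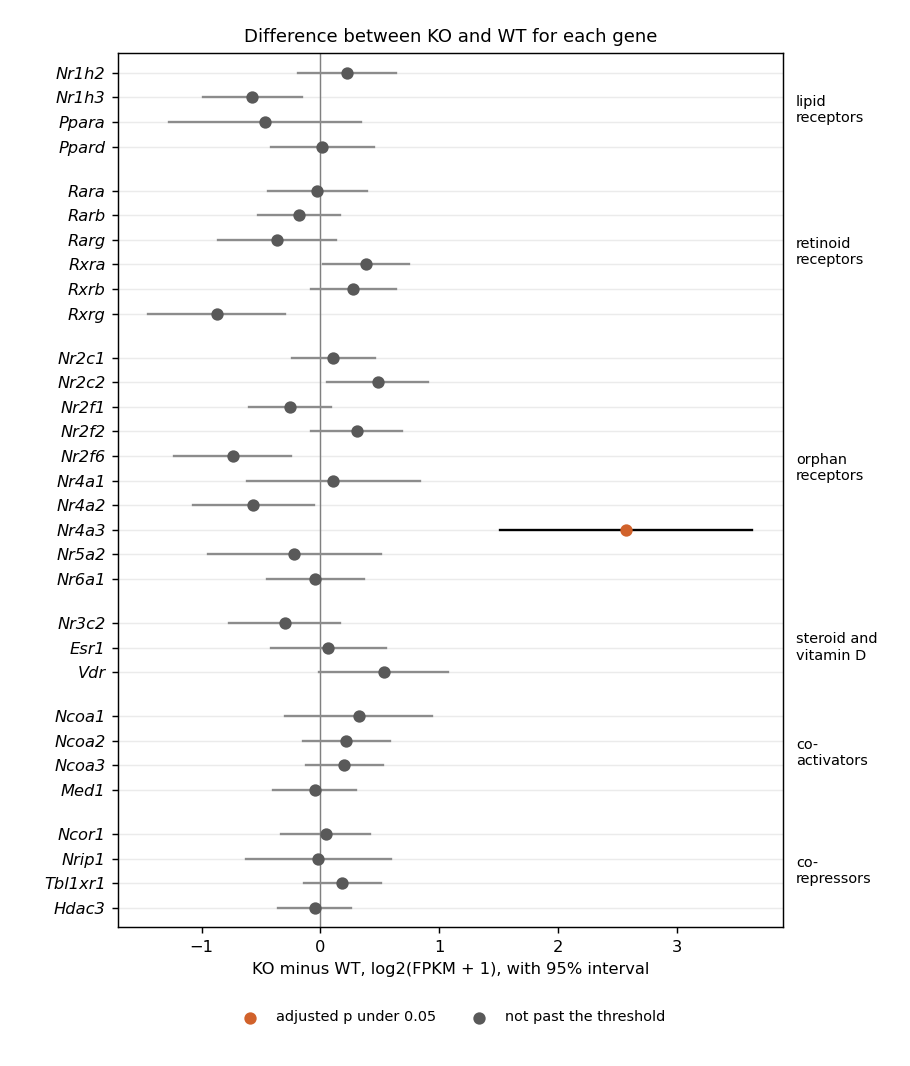
Difference between the KO and WT means of log2(FPKM + 1) for each of the 31 genes (points) with its 95% interval from limma (lines), grouped by role. Nr4a3, at 2.57, is the 1 orange point past the threshold, and the corepressor points lie between −0.05 and 0.19.

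Related genes were taken from 11 lists, which hold 223 different genes of the table. The lists include 2 of the 31 genes, Nr1h3 as an LXR target and Rarb as a retinoic acid receptor target. Of the 223 genes, 185 passed the filter and 8 were called, 4 higher and 4 lower. Over all tested genes 2.21% were called (1.21% higher and 1.01% lower). In single lists the share called ran from 0% to 16.7%, the latter from 2 of 12 genes. Of the other nuclear receptors 11 of 23 in the table were tested, and 1 rose: Nr1d2, the gene of the clock repressor REV-ERB beta. It measured 9.81, 8.59 and 8.77 FPKM in WT against 26.4, 31.4 and 37.1 FPKM in KO (log2 fold change 1.69, SE 0.16, limma adjusted p 0.0041), and it passed in 16 of 16 alternatives. The list's median log2 fold change was −0.04, against 0.01 over all tested genes. None of 29 other coactivators passed (limma; 7 with an unadjusted p under 0.05; median 0.06), with Prdm16, a brown fat coregulator, closest at 4.76 ± 0.574 FPKM in WT and 2.19 ± 0.709 FPKM in KO (SD, n = 3; log2 fold change −0.87, limma adjusted p 0.0519). Of 27 other corepressors 1 fell past the threshold and none rose past it (median of the list −0.07). The deacetylase gene Hdac1 measured 57.6, 62.0 and 59.1 FPKM in WT against 39.1, 37.9 and 34.9 FPKM in KO (log2 fold change −0.66, limma adjusted p 0.0416). Hdac1 lost the threshold in 7 of 16 alternatives. The largest difference of the list was in Zbtb16, at 7.5 ± 3.4 FPKM in WT and 30.4 ± 13.6 FPKM in KO (SD, n = 3). It had no overlap and did not pass (log2 fold change 1.86, limma adjusted p 0.0559).

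The supply of retinoid ligands showed no call. Of 16 tested genes of retinoid metabolism and transport 0 passed (limma; 4 with an unadjusted p under 0.05), and the median log2 fold change was −0.14. The closest were Rdh12, a retinal reductase, at 0.637 ± 0.412 FPKM in WT and 1.85 ± 0.366 FPKM in KO, and Dhrs9, a retinol dehydrogenase, at 21.7 ± 10.3 FPKM in WT and 9.47 ± 4.45 FPKM in KO (SD, n = 3; limma adjusted p 0.0853 and 0.139). Of 12 tested retinoic acid receptor targets 0 passed (limma; 1 with an unadjusted p under 0.05; median −0.13), the closest being Hic1 (log2 fold change −0.63, limma adjusted p 0.162).

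Target genes of the lipid receptors had KO values on both sides of WT. Of 17 tested LXR targets 9 had higher and 8 lower KO values (median 0.13, turning to −0.09 without WT replicate 1 and −0.01 without KO replicate 1), and 1 rose: Mylip, the gene of a ubiquitin ligase that removes the LDL receptor, measured 19.2, 21.98 and 17.2 FPKM in WT against 38.0, 33.0 and 32.9 FPKM in KO (log2 fold change 0.80, limma adjusted p 0.0369). Mylip lost the threshold in 7 of 16 alternatives. Of the 17 LXR targets 8 had an unadjusted p under 0.05 (limma), 4 higher and 4 lower in KO. That is 47.1%, against 19.2% of all tested genes. Of 26 tested PPAR alpha and delta targets 11 had higher and 15 lower KO values (median −0.10), and 1 fell: Acot1, an acyl-CoA thioesterase gene, measured 28.7, 40.1 and 38.0 FPKM in WT against 16.1, 13.8 and 22.3 FPKM in KO (log2 fold change −1.004, limma adjusted p 0.0435). Acot1 lost the threshold in 8 of 16 alternatives. KO replicate 3, which had the lowest Ppara value, had the highest of the 3 KO values of Acot1.

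The list for the mineralocorticoid and glucocorticoid receptors, which share many targets, had the largest share of genes with an unadjusted p under 0.05 among the 11 lists, 8 of 12 tested against 19.2% of all genes. Of the 8, 5 had higher KO values (Per1, Tsc22d3, Fkbp5, Klf9 and Zbtb16) and 3 lower KO values (Sgk1, Dusp1 and Hsd11b2). The median log2 fold change of the list was 0.29, and 0.19 without WT replicate 1 and 0.08 without the filter on low values. In this list 2 genes rose. Per1, a clock gene, measured 19.4, 25.04 and 21.96 FPKM in WT against 51.2, 42.4 and 58.6 FPKM in KO (log2 fold change 1.16, limma adjusted p 0.0183), and Tsc22d3, the gene of GILZ, measured 31.3, 31.8 and 27.5 FPKM in WT against 53.5, 59.5 and 82.2 FPKM in KO (log2 fold change 1.06, limma adjusted p 0.0304). Tsc22d3 lies on the X chromosome. Per1 lost the threshold in 4 and Tsc22d3 in 6 of 16 alternatives. Of 8 tested estrogen receptor targets 1 fell, Ccnd1, the cyclin D1 gene, with 27.4, 25.4 and 25.9 FPKM in WT against 13.05, 14.5 and 9.81 FPKM in KO (log2 fold change −1.03, limma adjusted p 0.0248; median of the list −0.07), which lost the threshold in 5 of 16 alternatives. Of 6 tested genes of vitamin D response and metabolism 0 passed (limma; 1 with an unadjusted p under 0.05; median −0.06), the closest being Cyp27a1, a sterol hydroxylase gene (log2 fold change 0.53, limma adjusted p 0.168).

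Leaving out WT replicate 2 or WT replicate 3 ended the call of each of Hdac1, Mylip, Acot1, Per1, Tsc22d3 and Ccnd1 (limma adjusted p 0.0674 to 0.184). Leaving out KO replicate 1 ended it for all of these but Tsc22d3 (0.0533 to 0.122), KO replicate 2 for Hdac1, Mylip, Acot1 and Tsc22d3 (0.0734 to 0.117), and KO replicate 3 for Hdac1, Mylip, Tsc22d3 and Ccnd1 (0.0523 to 0.118).

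The immediate early genes, which like the NR4A group are switched on within minutes of a signal, had calls in both directions. Of 28 tested, 13 had higher and 15 lower KO values (median −0.07), and besides Per1 1 gene was called, which fell: Fos measured 9.04, 10.4 and 9.37 FPKM in WT against 2.71, 3.82 and 2.84 FPKM in KO (log2 fold change −1.37, SE 0.16, limma adjusted p 0.00841). Fos and Nr4a3 thus had non-overlapping groups in opposite directions in the same libraries. Fos passed in 16 of 16 alternatives. Of the 28 immediate early genes 10 had an unadjusted p under 0.05 (limma), 3 higher and 7 lower in KO. That is 35.7%, against 19.2% of all tested genes.

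**Figure D4:**
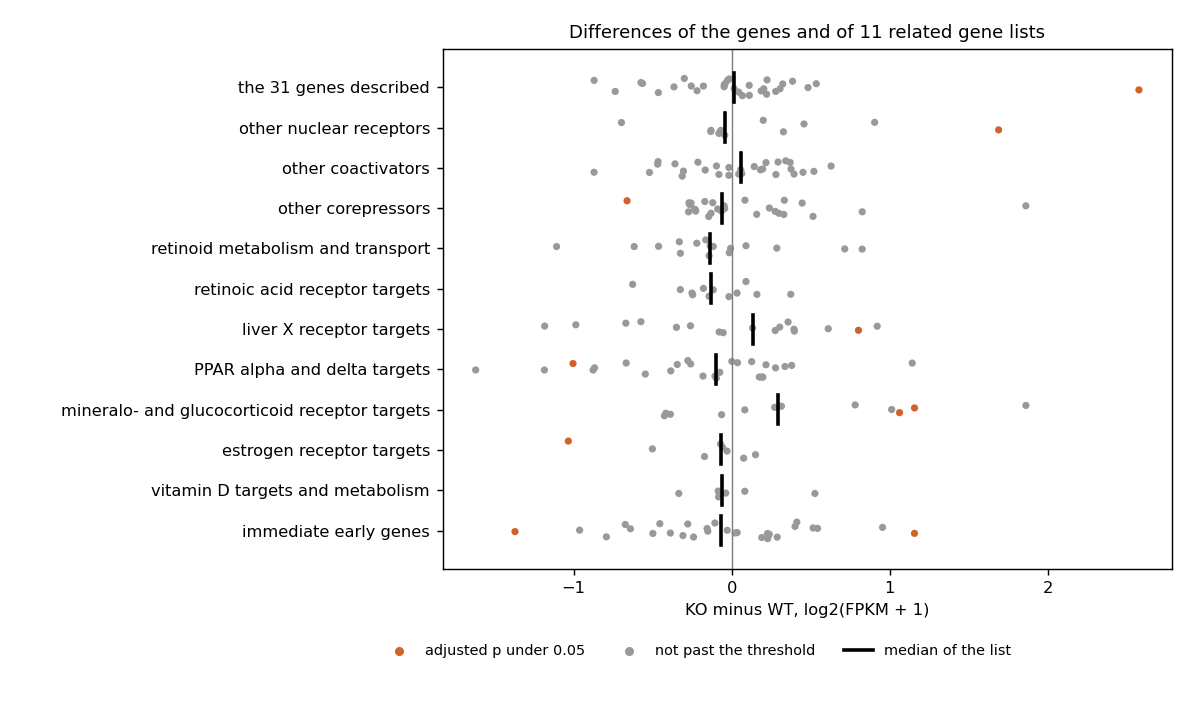
Difference between the KO and WT means of log2(FPKM + 1) (x axis) for each tested gene of the 31 and of 11 related lists (rows); orange points are past the adjusted p of 0.05 and black bars are list medians. The medians lie between −0.14 and 0.29. Single genes past the threshold lie apart from them, such as Nr4a3 at 2.57, Nr1d2 at 1.69 and Fos at −1.37. So do Zbtb16 at 1.86 and Fgf21 at −1.62, which did not pass.

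Extreme values of the 31 genes were spread over all 6 libraries. The number of genes with the highest of the 6 values was 5, 2 and 10 in WT replicates 1, 2 and 3 and 4, 4 and 5 in KO replicates 1, 2 and 3, and the number with the lowest was 5, 5 and 8 in WT and 2, 4 and 7 in KO. Summed over the 31 genes, expression came to 466 to 513 FPKM in WT and 443 to 510 FPKM in KO. WT replicate 3 held the most extreme values, 18 in all, and it also had the highest erythroid marker sum.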

How the data were processed

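The authors deposited 1 table of FPKM values for the 6 libraries, per the file headers, with genes given by Entrez identifier, symbol and RefSeq transcripts and values rounded to 2 decimals. HISAT2 2.0.4, Bowtie2 2.2.5, DESeq2 and the build mm10 are named in the submitters' processing notes without a role, and the quantifier, annotation and strand handling are not given in the sources used here. Groups and replicate numbers came from the sample titles.

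FPKM are not counts, so log2(FPKM + 1) was fitted with limma 3.58.1 in R 4.3.3 (eBayes with trend, no covariates), on genes averaging 0.5 FPKM or more, and p-values were adjusted over all 13331 genes. The fit was run on simulated data with independent noise in each gene, and the outcome is not given here. That simulation held no shift shared by the genes of a library, so it cannot cover such shifts. The members and lists were chosen with earlier results of these data known. Values per library are given for genes past the threshold and for the leading genes of each class by p and by level; from each list the genes past the threshold, or those closest to it, are named.

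Depth is not stated. Steps between low values of short genes with 1 transcript gave an estimate of 13900000 to 15000000 reads per library, with 78.0% to 82.3% of values within 0.2 of a whole read (44.4% to 47.7% with lengths shuffled). The depth was fitted with 50 bases taken off each length. With this depth and the full length of its shortest transcript, each of the 31 genes rested on about 20.7 reads or more in each library. The fewest were for Nr5a2. As alternatives, 0.1 and 0.01 were added in place of 1, the filter was dropped or set at 5 FPKM, and the others were quantile, median-of-ratios and TMM scaling, eBayes without trend or robust, the replicate block and leaving out each library.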

Additional observations from a re-analysis of the deposited data

How the results depend on the processing

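Beyond the values given with the results, Nr4a3 kept its direction in all 16 alternatives and its call in 9. The number of the 31 genes called was 1 in the main analysis, 0 without the filter and with robust eBayes (limma; without the filter more genes enter the test), and 0 to 4 when 1 library was left out; the 4, without WT replicate 1, were Nr1h3, Nr2c2, Nr2f6 and Nr4a3. Over all genes the count was 295, and 35 without the filter and 31 to 370 without 1 library, lowest without WT replicate 3 (31) and WT replicate 2 (39), then 87, 89 and 121 without KO replicates 3, 2 and 1; lower genes made up 45.4% of the 295, and 25.8%, 29.9% and 55.4% without KO replicates 2, 3 and 1. A fit with fewer libraries has less power by its construction; the cause of the 370 calls without WT replicate 1 was not tested. The related lists held 8 called genes in the main analysis, 2 without the filter and 2 to 15 without 1 library. Fstl1 kept its fold change of −2.79 without the filter at a limma adjusted p of 0.0606. Same-numbered libraries of the 2 groups deviated together at correlations of 0.068, 0.043 and 0.043 over genes. Differently numbered ones had lower correlations, from −0.078 to 0.029. These small values cannot decide whether the libraries are paired. The sample titles do not say that the numbers pair animals, so the numbers are not read as pairs in the main fit. With the replicate block 167 genes were called, Nr4a3 among them (adjusted p 0.00791), and Hdac1 (0.076), Mylip (0.0603), Acot1 (0.0569) and Tsc22d3 (0.0546) were not.

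Reversals were all in genes that did not pass. Ppard turned to −0.0068 with quantile normalization and −0.0035 with median-of-ratios scaling. Leaving out 1 library, log2 fold changes ran from −0.718 to 0.0294 for Ppara, −0.112 to 0.184 for Ppard, −0.132 to 0.141 for Rara, −0.0888 to 0.476 for Nr4a1, −0.171 to 0.095 for Nr6a1, −0.0966 to 0.241 for Esr1, −0.154 to 0.0622 for Med1, −0.0933 to 0.148 for Ncor1, −0.287 to 0.159 for Nrip1 and −0.0853 to 0.0223 for Hdac3. The cause was not tested. Shares, an alternative chosen after seeing the data, ran without 1 library from −2.48 to 1.55 percentage points for Rarb and −0.312 to 0.544 for Ppard. List medians moved too: without 1 library they ran from −0.09 to 0.18 for the other nuclear receptors, −0.09 to 0.23 for LXR targets, 0.19 to 0.43 for mineralocorticoid and glucocorticoid receptor targets, −0.16 to 0.03 for estrogen receptor targets, −0.09 to 0.05 for vitamin D genes and −0.24 to 0.13 for immediate early genes, and those of the other 5 lists kept their sign in these fits. Over all 16 alternatives the median ran from −0.20 to 0.03 for retinoic acid receptor targets and from −0.09 to 0.22 for vitamin D genes.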
